A study of Mus musculus with 10 samples.

Results

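The NF-kB pathway genes described here are the subunits Nfkb1, Nfkb2, Rel, Rela and Relb, the inhibitors Nfkbia and Tnfaip3, the adaptors Traf2 and Traf3, and the kinase Map3k14. They were taken by symbol, 10 of the 35275 genes in the deposited table, and all 10 were among the 15729 genes tested. Poly(A) RNA was sequenced from jejunal epithelial cells of adult mice labelled male, which all carried VillinCreERT2 and MYO5Bflox/flox on C57BL/6. Myosin Vb is a motor protein that carries membrane cargo to the apical surface of enterocytes, and the villin promoter confines Cre to intestinal epithelium. The 3 control mice carried the same alleles but received corn oil in place of tamoxifen. The 4 MYO5B-knockout mice received a single dose of 2 mg tamoxifen and vehicle (0.1% BSA in PBS) by intraperitoneal injection for 4 days. The 3 LPA-treated MYO5B-knockout mice received the same tamoxifen dose and 3 mg/kg lysophosphatidic acid (LPA), a bioactive lipid that acts through G protein-coupled receptors, for 4 days. Control and knockout therefore also differed in tamoxifen and in the labelled vehicle injections, and these cannot be told apart from the loss of MYO5B. Knockout and LPA-treated mice differed by design in LPA alone.

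NF-kB proteins are dimeric transcription factors that wait in the cytoplasm until a receptor signal releases them. In the canonical arm, the IkB kinase complex marks IkB proteins such as the Nfkbia product for destruction and frees dimers that hold RelA or c-Rel and p50, which is processed from the Nfkb1 product. In the noncanonical arm, receptors of the TNF family such as the lymphotoxin beta receptor release NIK, the Map3k14 product, from degradation by a complex that contains TRAF2 and TRAF3. NIK then drives processing of the Nfkb2 product p100 to p52, the partner of RelB. In the intestine the canonical arm serves epithelial survival and defence, and the noncanonical arm is known for lymphoid tissue and for M cells, the antigen-sampling cells over lymphoid follicles.

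NF-kB controls several of its own genes, so the members' promoters are shown where they carry the kB consensus, the 10-base motif that NF-kB dimers bind. It was searched on both strands in the 250 bases upstream of each start in the RefSeq promoters (GRCm38.p6), and 7.25% of 32851 promoters held it. RefSeq promoters were matched for 8 members, without Nfkb1 and Relb. At the first start, 5 of the 8 held the motif, namely Nfkb2, Rel, Nfkbia, Tnfaip3 and Traf3, and no match was found for Rela, Traf2 or Map3k14. Each window below is 30 bases, 5′ to 3′ on the gene's own strand, with matches in capitals. The Nfkb2 window has overlapping matches that begin 39 and 38 bases before the start, and a further match begins 11 bases before it. This window lies within an exon of a longer GENCODE transcript.
Nfkb2, chr19:46304688-46304717, plus strand: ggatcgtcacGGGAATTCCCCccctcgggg
Rel, chr11:23771042-23771071, minus strand: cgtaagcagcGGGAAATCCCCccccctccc
Nfkbia, chr12:55492657-55492686, minus strand: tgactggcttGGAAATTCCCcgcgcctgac
Tnfaip3, chr10:19015516-19015545, minus strand: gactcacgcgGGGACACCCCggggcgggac
Tnfaip3, chr10:19015411-19015440, minus strand: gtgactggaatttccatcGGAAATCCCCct
Traf3, chr12:111166340-111166369, plus strand: cgcgcgcccaggcggcccgcGGGGATTTCC
A match describes letters only. Genes with the motif included the strongest member by level, Nfkbia, and the weakest, Rel.

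The libraries held 10949420 to 24470409 reads on genes. In control mouse 2 and knockout mouse 3, called the low-detection libraries here, 12242 and 12601 genes were detected and 17.4% and 18.0% of reads were mitochondrial, against 17309 to 18267 genes and 1.98% to 3.5% in the other 8 libraries. Xist was present in knockout mouse 3 (8.41 FPKM) and in LPA-treated mouse 1 (15.1 FPKM), and 4 Y-linked genes had no reads in either, although all mice are labelled male. The description of LPA-treated mouse 1 names both vehicle and LPA, and it was grouped by its title. Myo5b was 16.5 to 32.0 FPKM in control mice and 10.3 to 13.6 FPKM in the 7 tamoxifen-treated mice. Epithelial markers (keratins, Lgals4 and others, 10 genes) were all detected in every library, but their levels were not all alike between groups. Krt18 averaged 191, 729 and 1039 FPKM and Krt19 870, 1717 and 2344 FPKM in control, knockout and LPA-treated mice. Both were higher in LPA-treated mice than in control with the limma test described below (adjusted p = 0.0316 and 0.0483). Levels are given as FPKM, reads scaled to gene length and to the reads of the library. Differences are log2 fold changes of FPKM plus 0.1 with standard errors from limma and adjusted p-values over all genes tested, and a gene passed when its adjusted p was under 0.05.

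The noncanonical subunits Relb and Nfkb2 were lower on average in knockout than in control epithelium, and neither passed the test. Relb, encoding the transactivating partner of p52, lies at chr7:19606217-19629438 (minus strand, GRCm38). Relb was 13.7, 34.2 and 26.1 FPKM in control mice 2, 4 and 5. In knockout mice 3, 5, 6 and 7 it was 4.38, 8.72, 11.7 and 15.1 FPKM. Only control mouse 2, a low-detection library, fell within the knockout range. The log2 fold change was -1.34 ± 0.50 (SE; fold 0.396, 95% interval -2.44 to -0.24, adjusted p = 0.197). Such a difference in bulk RNA cannot tell fewer cells that express a gene from less RNA per cell.

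Nfkb2, encoding p100 and p52, lies at chr19:46304737-46312090 (plus strand). Nfkb2 was 18.2, 24.4 and 16.1 FPKM in control mice 2, 4 and 5. In knockout mice 3, 5, 6 and 7 it was 2.94, 9.63, 10.6 and 9.77 FPKM, so that every knockout mouse lay below every control mouse. The log2 fold change was -1.38 ± 0.53 (SE; fold 0.385, 95% interval -2.54 to -0.21, adjusted p = 0.208). The most distant value was that of knockout mouse 3, and without it and control mouse 2 the log2 fold change of Nfkb2 was -0.98. Nfkb2 shares 299 exon bases with Psd on the opposite strand, which had 14.5% as many reads, and whether the counting used strand is not given in the sources used here.

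**Figure D1:**
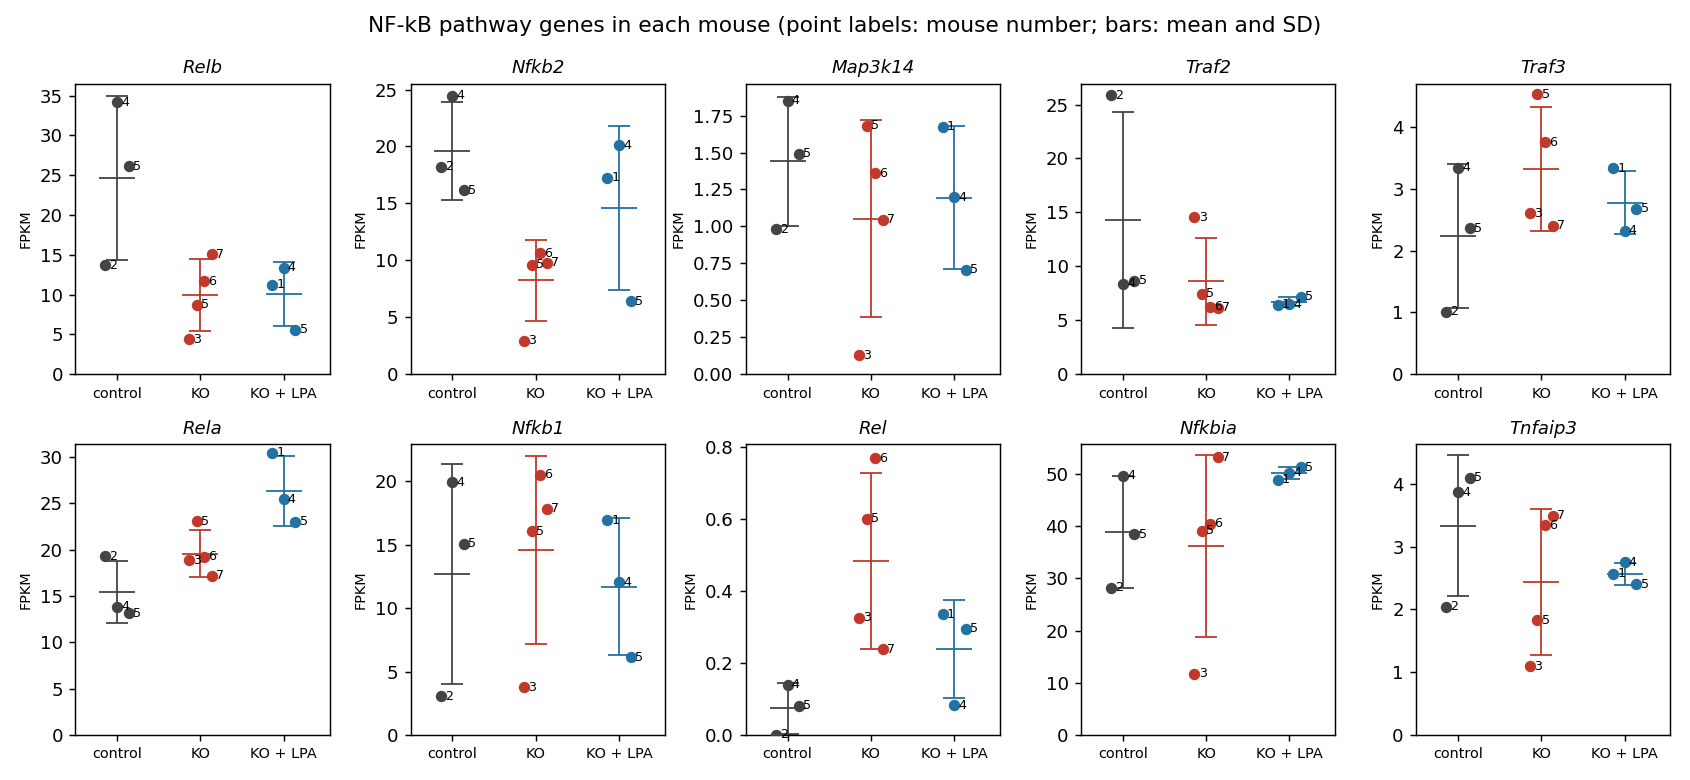
FPKM of each NF-kB member (1 panel per gene, linear axis from 0) in the 3 control, 4 knockout (KO) and 3 LPA-treated knockout (KO + LPA) mice. Points are single mice labelled with their number and bars are mean and SD. Nfkb2 in knockout mice (2.94 to 10.6 FPKM) sits below all control mice (16.1 to 24.4 FPKM), and Rel sits above them at a level under 1 FPKM.

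The genes upstream of Nfkb2 processing showed wide spread. Map3k14, the NIK kinase, was 0.981, 1.85 and 1.49 FPKM in control mice 2, 4 and 5 and 0.129, 1.68, 1.36 and 1.04 FPKM in knockout mice 3, 5, 6 and 7. The groups overlapped, and the single low value in knockout mouse 3 rested on 6 reads (log2 fold change -0.72 ± 0.71 SE, adjusted p = 0.635, and -0.06 without that mouse). Traf3, the adaptor that brings NIK to its ubiquitin ligase, was 1.01, 3.34 and 2.36 FPKM in control mice and 2.60, 4.53, 3.76 and 2.40 FPKM in knockout mice. Its control range reached into the knockout range (0.65 ± 0.46 SE, adjusted p = 0.504). Traf2, which couples that complex and TNF receptors to ubiquitin ligases, was 25.9, 8.38 and 8.67 FPKM in control mice and 14.5, 7.44, 6.25 and 6.15 FPKM in knockout mice (-0.61 ± 0.46 SE, adjusted p = 0.523, and -0.08 without control mouse 2). The high values of Traf2 were those of control mouse 2 and knockout mouse 3, the libraries with a mitochondrial share of 17.4% and 18.0%. The part of that in the Traf2 values was not tested.

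Among the canonical subunits, Rela had the highest group means, although Nfkb1 exceeded Rela in control mice 4 and 5 and in knockout mice 6 and 7. Rela, encoding the main transactivating subunit, was 19.3, 13.8 and 13.1 FPKM in control mice 2, 4 and 5 and 18.9, 23.1, 19.2 and 17.2 FPKM in knockout mice 3, 5, 6 and 7. Control mouse 2 lay inside the knockout range (0.36 ± 0.26 SE, adjusted p = 0.509). The sign for Rela against control depended on the scaling, with 0.06 after median-ratio scaling and -0.02 with DESeq2. Nfkb1, encoding p105 and p50, was 3.03, 19.9 and 15.1 FPKM in control mice and 3.77, 16.1, 20.5 and 17.9 FPKM in knockout mice. Its lowest value in either group came from its low-detection library, and the groups overlapped (0.33 ± 0.75 SE, adjusted p = 0.859).

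Rel, encoding c-Rel, a subunit best known from lymphocytes, was the weakest member. Rel was 0, 0.139 and 0.0816 FPKM in control mice 2, 4 and 5, which rest on 0, 6 and 4 reads. In knockout mice 3, 5, 6 and 7 it was 0.326, 0.601, 0.769 and 0.238 FPKM, from 10 to 44 reads. Every knockout value lay above every control value, at levels of few reads (1.74 ± 0.57 SE on the log2 scale with 0.1 added, adjusted p = 0.147). The value of Rel depended on the added constant, with 0.45 for 1 and 3.11 for 0.01.

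The feedback inhibitors, which NF-kB itself induces, overlapped between control and knockout mice. Nfkbia, encoding IkB alpha, was 28.2, 49.8 and 38.5 FPKM in control mice 2, 4 and 5 and 11.8, 39.2, 40.5 and 53.2 FPKM in knockout mice 3, 5, 6 and 7 (-0.26 ± 0.46 SE, adjusted p = 0.812). Tnfaip3, encoding the ubiquitin-editing enzyme A20, was 2.04, 3.87 and 4.10 FPKM in control mice and 1.09, 1.82, 3.34 and 3.49 FPKM in knockout mice (-0.51 ± 0.48 SE, adjusted p = 0.613). For both inhibitors the lowest value was that of knockout mouse 3, and for Tnfaip3 the overlap rested on control mouse 2, since the other control mice lay above every knockout mouse.

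Over the 10 members, 0 passed between knockout and control with limma, beside 2.01% of all genes tested. At an unadjusted p under 0.05 there were 3, Nfkb2, Rel and Relb, beside 17.6% of all genes. With edgeR 0 members passed, beside 2.82% of genes, and with DESeq2 the same 3 passed, beside 12.5% of genes. Relb alone passed after median-ratio scaling (3.8% of all genes), Relb and Nfkb2 passed after quantile normalization (5.11%), and Nfkb2, Rel and Relb passed with a term for the 2 low-detection libraries (15.6%). Without those 2 libraries the log2 fold change of Relb was -1.37 (adjusted p = 0.0915). Without the 2 libraries that held Xist, Relb was -0.99 and Nfkb2 -0.94 (adjusted p = 0.219 and 0.202). Groups did not overlap for 1 member higher in knockout mice, Rel, beside 11% of all genes, and for 1 member lower, Nfkb2, beside 6.2%. The median log2 fold change was -0.39 over the members and 0.29 over all genes, so Relb and Nfkb2 lay further below the bulk of genes than below 0. These medians were -0.15 and 0.21 without the 2 low-detection libraries, and -0.67 and 0.04 after median-ratio scaling.

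Because each library serves as its own reference, the mix of subunits was also expressed as the ratio of Relb plus Nfkb2 to Rela plus Nfkb1, which no scaling of a library alters. This ratio was chosen after the values were seen and is a description without a test. It was 1.43, 1.74 and 1.50 in control mice 2, 4 and 5. In knockout mice 3, 5, 6 and 7 it was 0.323, 0.469, 0.560 and 0.709, and in LPA-treated mice 1, 4 and 5 it was 0.601, 0.894 and 0.411. All 3 control libraries held more noncanonical than canonical subunit mRNA per length, and all 7 tamoxifen-treated libraries held less. The ratio of control mouse 2 was made of components far from those of the other control mice. Relb over Rela was 0.708 there against 2.47 and 1.99 in control mice 4 and 5, and Nfkb2 over Nfkb1 was 6.00 against 1.23 and 1.07. Relb over Rela overlapped between control and knockout mice (0.708 to 2.47 and 0.232 to 0.878), while in LPA-treated mice it was 0.242 to 0.525. Nfkb2 over Nfkb1 was 0.516 to 0.778 in knockout mice and overlapped between control (1.07 to 6.00) and LPA-treated mice (1.02 to 1.67). For Nfkb2 over Rela the ratio was 1.31 ± 0.417 (SD, n = 3) in control, 0.423 ± 0.191 (SD, n = 4) in knockout and 0.545 ± 0.256 (SD, n = 3) in LPA-treated mice. As shares of the 5 subunit mRNAs, Relb made up 25.2% to 37.0% in control mice, 14.5% to 25.1% in knockout mice and 13.5% to 18.8% in LPA-treated mice. Rela made up 15.0% to 35.6%, 28.6% to 62.3% and 35.8% to 55.5% in the same order.

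**Figure D2:**
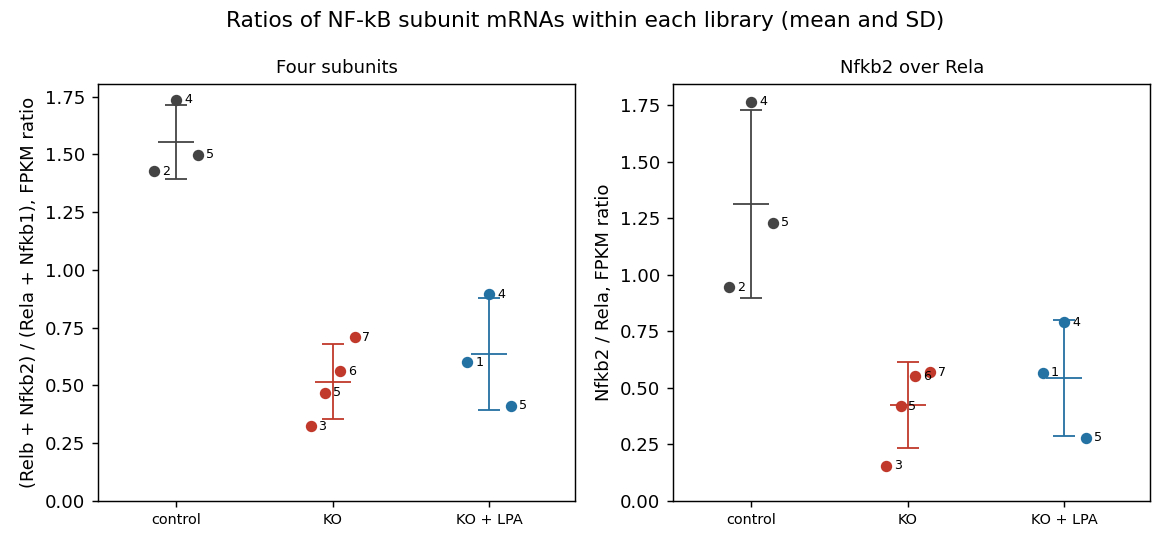
Ratios of subunit FPKM within each library (linear axes from 0), Relb plus Nfkb2 over Rela plus Nfkb1 at left and Nfkb2 over Rela at right. Points are mice labelled with their number and bars are mean and SD. Control libraries sit at 1.43 to 1.74 at left, above the knockout (0.323 to 0.709) and LPA-treated (0.411 to 0.894) libraries.

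LPA treatment of knockout mice was compared with vehicle to ask whether LPA altered the same genes. No member passed, and the values overlapped for all 10. Nfkb2 was 17.2, 20.1 and 6.42 FPKM in LPA-treated mice 1, 4 and 5, so that mice 1 and 4 reached control levels while mouse 5 stayed within the knockout range (0.82 ± 0.53 SE, fold 1.76, 95% interval -0.34 to 1.98, adjusted p = 1.0). Leaving out 1 mouse moved the log2 fold change of Nfkb2 from 0.38 without knockout mouse 3, or 0.51 without LPA-treated mouse 4, to 1.33 without LPA-treated mouse 5. Relb was 11.2, 13.4 and 5.57 FPKM in the same mice, all inside the knockout range (0.06 ± 0.50 SE, 95% interval -1.04 to 1.16, adjusted p = 1.0). The intervals for Nfkb2 and Relb overlap, and the difference between these genes was not tested.

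Rela was 30.4, 25.5 and 23.0 FPKM in LPA-treated mice 1, 4 and 5, so that mice 1 and 4 lay above every knockout mouse and mouse 5 just under the highest of them, at 23.1 FPKM (0.42 ± 0.26 SE). Nfkbia was 49.0, 50.3 and 51.3 FPKM, a narrow spread near the top of the knockout range (0.67 ± 0.46 SE). Map3k14 was 1.67, 1.20 and 0.707 FPKM (0.44 ± 0.71 SE), Tnfaip3 2.56, 2.75 and 2.40 FPKM (0.21 ± 0.48 SE). Both sat inside the knockout range. Nfkb1 was 16.9, 12.0 and 6.14 FPKM (-0.18 ± 0.75 SE), Traf2 6.45, 6.49 and 7.18 FPKM (-0.26 ± 0.46 SE) and Traf3 3.33, 2.32 and 2.68 FPKM (-0.22 ± 0.46 SE). Rel was 0.336, 0.0826 and 0.295 FPKM from 23, 4 and 11 reads (-0.79 ± 0.57 SE). Without control mouse 2 and knockout mouse 3, the signs for Relb, Tnfaip3, Traf2 and Map3k14 turned, to -0.29, -0.11, 0.02 and -0.23. Without the 2 libraries that held Xist, one of which is LPA-treated mouse 1, the log2 fold change of Nfkb2 was 0.19 and that of Relb -0.41.

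With limma 0 members passed between LPA and vehicle beside 0% of all genes, 0 had an unadjusted p under 0.05 beside 2.92%, 0 passed with edgeR beside 0%, and 0 passed with DESeq2 beside 0.0589%. No member lay wholly above (3.56% of all genes) or wholly below (0.604%) the vehicle group. The members' median log2 fold change was 0.13, beside 0.11 over all genes. Without the 2 low-detection libraries these medians were -0.17 and -0.11.

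**Figure D3:**
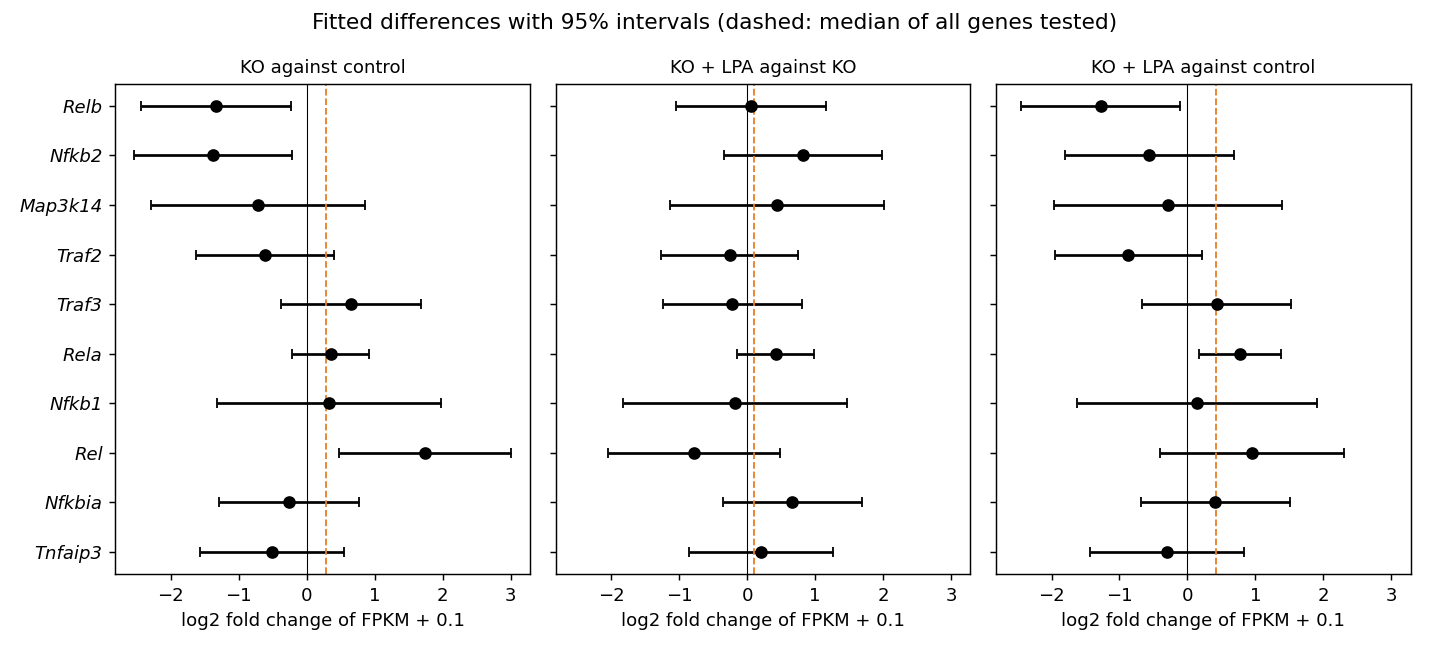
Fitted log2 fold changes of FPKM plus 0.1 (points) with 95% intervals (lines) for the 10 members in the 3 comparisons of control, knockout (KO) and LPA-treated knockout (KO + LPA) mice. The solid line marks 0 and the dashed line the median of all genes tested (0.29, 0.11 and 0.41). Relb (-1.34) and Nfkb2 (-1.38) lie lowest in knockout against control, and Relb (-1.28) lies lowest in LPA-treated knockout against control.

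Against control, which is shared with the first comparison, LPA-treated knockout mice had lower Relb and higher Rela, and neither passed with limma. Relb in the 3 LPA-treated mice lay below all control mice, at 11.2, 13.4 and 5.57 FPKM against a lowest control value of 13.7 FPKM (-1.28 ± 0.53 SE, fold 0.412, adjusted p = 0.265). Rela in LPA-treated mice lay above all control mice, with its lowest value of 23.0 FPKM against a highest control value of 19.3 FPKM (0.78 ± 0.27 SE, fold 1.71, adjusted p = 0.186). The median over all genes was 0.41 here, and after median-ratio scaling the log2 fold change of Rela was 0.41 and with DESeq2 0.29. Nfkb2 overlapped with control (-0.56 ± 0.56 SE, adjusted p = 0.646), and its value ran from -0.87 without LPA-treated mouse 4 to -0.05 without LPA-treated mouse 5. Traf2 lay below all control mice, with a highest LPA-treated value of 7.18 FPKM against a lowest control value of 8.38 FPKM (-0.87 ± 0.49 SE, adjusted p = 0.405). The other 6 members overlapped and lay between -0.30 (Tnfaip3) and 0.95 (Rel).

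With limma 0 members passed in LPA-treated knockout against control beside 2.32% of all genes, 2 had an unadjusted p under 0.05 (Rela and Relb, beside 16.4%), 0 passed with edgeR beside 2.4% and 1 passed with DESeq2 (Relb, beside 10.2%). Without the 2 low-detection libraries Rela and Relb passed (0.95, adjusted p = 0.0303, and -1.65, adjusted p = 0.0466) beside 8.56% of all genes. Both also passed with a term for those libraries, beside 11.4%. Without the 2 libraries that held Xist, Rela was 0.67 and Relb -1.40 (adjusted p = 0.234 and 0.199). Groups did not overlap for 1 member higher in LPA-treated mice (Rela, beside 20.5% of all genes) and for 2 members lower (Relb and Traf2, beside 6.38%).

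Most leukocyte markers were also lower in knockout than in control epithelium. The 25 markers summed to 1510 to 2427 FPKM in control mice, 63.3 to 969 FPKM in knockout mice and 200 to 271 FPKM in LPA-treated mice, and 0 to 9 of them had no reads in a given library. The larger part of each library's sum, except in LPA-treated mouse 4, was Cd74, encoding the chaperone of MHC class II, at 1067 to 2058 FPKM in control, 34.7 to 817 FPKM in knockout and 99.2 to 191 FPKM in LPA-treated mice. Without Cd74, left out after its values were seen, the sums were 351 to 482, 28.6 to 152 and 79.6 to 100.4 FPKM. Gzma was the larger part of these sums in control mice, at 226 to 331 FPKM. It was 7.20 to 91.4 FPKM in knockout and 18.4 to 27.8 FPKM in LPA-treated mice. Between knockout and control, 19 of 24 tested were lower and the median log2 fold change of the list was -1.81. Of these, 3 fell with adjusted p under 0.05 (Cd52, Cd79a and Gzma), beside 2.01% of all genes that passed. The adjusted p of Gzma was 0.0796 without the 2 low-detection libraries, where Cd52, Cd79a and Tyrobp fell, beside 778 of 15729 genes that passed. Between LPA and vehicle 19 of 24 leukocyte markers were higher and 5 lower (median 0.61, 0 passed). Cd79a (2.61, at 0.030 to 0.168 FPKM in knockout mice) and Cd52 (1.07) were among the higher. Cd74 (-0.24), Gzma (-0.49) and Cd3g (-0.47) were among the lower. In the same comparison the median was 0.81 for the NF-kB target genes, and Nfkb2 was 0.82. Without the 2 low-detection libraries these values lay apart, at 1.16 and 0.38. Nfkb2 in LPA-treated mice 1 and 4 was 17.2 and 20.1 FPKM, inside the control range. Their sums of all 25 markers were 271 and 200 FPKM, below the lowest control sum of 1510 FPKM. Without Cd74 their sums were 80.1 and 100.4 FPKM, and the lowest control sum was 351 FPKM. The part of leukocyte RNA in the Relb and Nfkb2 values was not tested. Goblet markers had a median of -0.02 between knockout and control, with 5 higher and 5 lower. Without the 2 low-detection libraries this median was 0.30, and Agr2 and Spdef rose (1.29 and 1.04, adjusted p = 0.0348 and 0.0406). Agr2 also rose in LPA-treated knockout against control (1.92, adjusted p = 0.0471). Goblet markers were 10 of 10 higher in LPA-treated than in vehicle-treated knockout mice (median 0.62, 0 passed), as were 8 of 8 tested stromal and endothelial markers (median 1.33, 0 passed). The latter list was near the floor, and its 12 genes summed to 0.596 to 4.88 FPKM in knockout mice. The sums were 1.91, 8.36 and 10.9 FPKM in LPA-treated mice 1, 4 and 5, and 8.52 FPKM in control mouse 2. LPA-treated mouse 1 thus lay inside the knockout range.

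**Figure D4:**
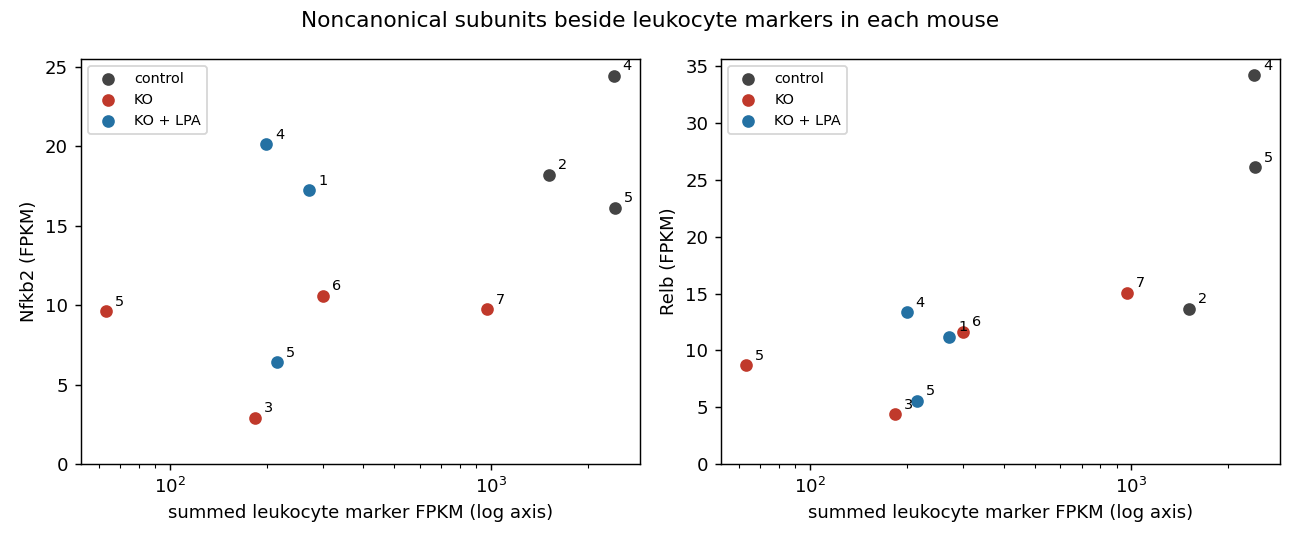
FPKM of Nfkb2 (left) and Relb (right) on linear axes against the summed FPKM of 25 leukocyte markers on a log axis, 1 point per mouse, labelled with its number. Control mice sit at the right of both panels, at 1510 to 2427 FPKM. Cd74 is the larger part of each sum except in LPA-treated mouse 4. LPA-treated mice 1 and 4 hold Nfkb2 of 17.2 and 20.1 FPKM at leukocyte sums of 271 and 200 FPKM.

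The remaining pathway genes were described by lists ordered by role. Of all genes tested, 2.01% passed in knockout against control, 0% between LPA and vehicle and 2.32% in LPA-treated knockout against control. Without the 2 low-detection libraries 8.56% passed in LPA-treated knockout against control, and 778 of 15729 genes passed in knockout against control. Of the noncanonical receptors and ligands, 8 of 12 were tested, and between knockout and control 0 passed (median log2 fold change -0.68). The lymphotoxin beta receptor gene Ltbr was 115 ± 10.6 FPKM (SD, n = 3) in control, 106 ± 11.5 (SD, n = 4) in knockout and 110 ± 1.34 (SD, n = 3) in LPA-treated mice. Tnfrsf12a, encoding the TWEAK receptor Fn14, was 10.6 ± 0.872 FPKM in control, 46.9 ± 29.5 in knockout and 114 ± 44.3 in LPA-treated mice. Tnfrsf12a rose in LPA-treated knockout mice against control (3.33 ± 0.58 SE, adjusted p = 0.0184). Without the 2 low-detection libraries Tnfrsf12a also rose in knockout mice against control (2.36, adjusted p = 0.0314), and Tnfrsf11a and Tnfsf13b fell in LPA-treated knockout mice against control (-2.04 and -3.66). Of the canonical receptors and ligands, 11 of 15 were tested and 0 passed in any comparison (medians -0.00, 0.31 and 0.42 in knockout against control, LPA against vehicle and LPA-treated knockout against control). Il18, a cytokine of the interleukin-1 family, was 129 ± 43.0 FPKM in control and 222 ± 74.1 FPKM in LPA-treated mice, and Tnfrsf1a, the TNF receptor, 68.6 ± 41.6 and 74.7 ± 26.0 FPKM.

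Among 21 adaptors and ubiquitin enzymes, Traf5 alone passed, and it fell in knockout mice, beside 2.01% of all genes that passed there. Its knockout values were 0 to 0.203 FPKM, so its log2 fold change depends on the added constant of 0.1. Traf5, an adaptor of TNF family receptors that is expressed in lymphocytes, was 1.93 ± 1.05 FPKM in control, 0.102 ± 0.102 in knockout and 0.496 ± 0.378 in LPA-treated mice (knockout against control -3.37 ± 0.65 SE, adjusted p = 0.0316, and 0.0522 without the 2 low-detection libraries). The most abundant of this list were Tradd and Rbck1, at 59.0 and 50.3 FPKM in control mice, and neither passed. None of 9 kinases passed, with a median of 0.79 in knockout against control, and Chuk, the IkB kinase of the noncanonical arm, was 22.0 ± 13.5 FPKM in control and 33.8 ± 8.86 FPKM in knockout mice (0.87 ± 0.50 SE, adjusted p = 0.399). Without the 2 low-detection libraries the kinase median was 0.32, as was Chuk, and Tab2 and Ikbkb rose in LPA-treated knockout mice against control (0.89 and 1.07). Tbk1 was 30.9 ± 14.4 and 23.7 ± 8.33 FPKM. None of 16 inhibitors and deubiquitinases passed (median 0.13), of which Tax1bp1 and Tnip1, partners of A20, were the most abundant at 104 and 50.3 FPKM in control mice. Without the 2 low-detection libraries the deubiquitinase gene Otud7b rose against control in knockout (1.21, adjusted p = 0.0373) and in LPA-treated knockout mice (1.19, adjusted p = 0.0275).

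Among NF-kB target genes, 20 of 22 were tested. The epithelial chemokine Ccl20 fell in knockout mice, from 35.2 ± 32.9 FPKM (range 14.8 to 73.2) to 1.99 ± 0.616 FPKM (-3.73 ± 0.61 SE, adjusted p = 0.0174), and was 5.17 ± 2.80 FPKM in LPA-treated mice. Lcn2, an iron-sequestering antibacterial protein gene, rose in LPA-treated knockout mice against control, from 0.627 ± 0.755 FPKM to 16.4 ± 17.4 FPKM (4.67 ± 1.0 SE, adjusted p = 0.046), and its adjusted p was 0.0538 without the 2 low-detection libraries, where Cxcl16 rose in the same comparison (1.26, adjusted p = 0.0495). Between LPA and vehicle 18 of the 20 targets were higher (median 0.81, beside 0.11 over all genes) and 0 passed. Bcl2l1 and Irf1, the most abundant targets, did not pass in any comparison, and Irf1 was 62.2 ± 18.7 FPKM in control and 35.7 ± 31.1 FPKM in knockout mice.

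Of 12 genes of M cells and noncanonical signalling, 9 were tested. Marcksl1, which encodes an actin-binding protein, rose in knockout mice (2.28 ± 0.49 SE, adjusted p = 0.0445) and in LPA-treated knockout mice (3.52 ± 0.52 SE, adjusted p = 0.00886), both against control. Its level was 9.82 ± 2.07 FPKM in control, 54.0 ± 30.5 in knockout and 121 ± 54.1 in LPA-treated mice. Without the 2 low-detection libraries the adjusted p for knockout against control was 0.0825, and Spib fell in LPA-treated knockout mice against control (-2.21, adjusted p = 0.0434). Pglyrp1 was 344 ± 361 FPKM (range 124 to 761) in control mice and 260 ± 150 FPKM (range 143 to 473) in knockout mice. The highest value of each of these groups came from its low-detection library. The log2 fold change of Pglyrp1 was -0.05, and 0.43 without those libraries, and it passed in neither fit.

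By mean FPKM over the 10 libraries, Nfkbia stood highest at 41.2, followed by Rela at 20.3, Relb at 14.4, Nfkb2 at 13.6, Nfkb1 at 13.1, Traf2 at 9.74, Traf3 at 2.83, Tnfaip3 at 2.75, Map3k14 at 1.21 and Rel at 0.287. Relb, Nfkb2 and Nfkb1 were neighbours whose ranges (4.38 to 34.2, 2.94 to 24.4 and 3.03 to 20.5 FPKM) covered each other, as did those of Traf3 and Tnfaip3. The order was not fixed across groups, since Relb averaged 24.6 FPKM against 15.4 FPKM for Rela in control mice and 9.96 against 19.6 FPKM in knockout mice.

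The pattern over the 10 libraries, which share the 3 groups and the 2 low-detection libraries, was also set beside other genes whose mean reached 1 FPKM, as a description. Of 10575 such genes, Relb was most like Iyd (Pearson r = 0.984), Acy3 (r = 0.982) and Cd82 (r = 0.976). Tnfaip3 was most like Ctss, a lysosomal protease gene (r = 0.975), and Car2, a carbonic anhydrase (r = 0.970). Map3k14 was second most like Nfkbie, encoding IkB epsilon (r = 0.988, and 0.937 without the 2 libraries), after Rnf152 (r = 0.992). Nfkb2 was most like Nudt13 (r = 0.942), Igkv6-23, an immunoglobulin segment (r = 0.940), and Gpr55 (r = 0.938). Rela was most like Pea15a (r = 0.957), Sgsm1 (r = 0.953) and Ralb (r = 0.952), and Rel most like Opa1 (r = 0.975). Traf3 was most like Uri1 (r = 0.971) and Nfkb1 most like Aldh9a1 (r = 0.994). Traf2 was most like the mitochondrial gene mt-Nd4 (r = 0.974, and 0.859 without the 2 low-detection libraries), and Nfkbia most like Ambp (r = 0.968, and 0.520 without them). Among the members themselves, the highest r were those of Traf3 with Rel (0.842), Map3k14 with Nfkb2 (0.841) and Relb with Nfkb2 (0.838) and Tnfaip3 (0.823). In the same order they were 0.785, 0.692, 0.780 and 0.805 without the 2 low-detection libraries. The lowest were those of Traf2 with Nfkb1 (-0.828), Traf3 (-0.745) and Nfkbia (-0.679), then Relb with Rela (-0.578). Without the 2 low-detection libraries these lowest pairs had r of -0.044, 0.020, -0.381 and -0.749.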

How the data were processed

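RNA from 10 jejunal epithelial samples was analysed. Per the labels, the authors used STAR (2.5), TopHat, HTSeq (0.6.1) and DESeq2 on GRCm38 (mm10), and strand handling was not given in the sources used here. The authors deposited FPKM for 35275 genes and, for genes they called, read counts. Tables that hold only the authors' fold changes, p-values or enrichments were not used. FPKM times gene length was a whole multiple of 1 read for 100% of values (tolerance 0.01), and 63 of 63 deposited counts equalled the recovered reads. Genes whose mean reached 0.1 FPKM were fitted in the 3 groups with limma 3.58.1 (trend) on log2(FPKM + 0.1), which understates changes of low genes, with Benjamini-Hochberg adjustment over 15729 genes. edgeR 4.0.16 (quasi-likelihood) and DESeq2 1.42.0 were run on recovered reads, in R 4.3.3. The limma test was used because the gene table is FPKM. Scripts were tested on simulated data. Alternatives covered the pseudocount, filter, scaling, samples and leaving out each mouse. Members and lists were chosen with earlier results of these data known. Named genes were all members, the 2 most abundant and any passing genes of each list (at most 6), and the 3 genes most like each member, of which the text gives a selection. Of the members, 7 of 10 had the same coordinates in GENCODE. Mice are separate animals, and the p-values set differences between group means against the spread between libraries within groups. That spread also holds the low-detection libraries and the libraries that held Xist.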

Additional observations from a re-analysis of the deposited data

Results flagged for a closer look

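Within the 4 knockout mice, mouse 3 stood apart from the others for 2 of the 10 members. Nfkb2 was lowest there, at 2.94 FPKM, with a gap to the next mouse of 0.873 of the group's range. Traf2 was highest there, at 14.5 FPKM, with a gap of 0.846. Both gaps exceed Dixon's 95% critical value for 4 samples, which chance passes in about 1 group in 20, and 10 groups of 4 were tested. Knockout mouse 3 also had 12601 detected genes and a mitochondrial share of 18.0%, and the part of these in both values was not tested.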

How the results depend on the processing

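Members that passed in knockout against control numbered 1 after median-ratio scaling, 2 after quantile normalization, and 3 with the covariate and with DESeq2. Genes that passed there numbered 316, and 188 without the filter, 598 after median-ratio scaling, 804 after quantile normalization, 50 with 2 groups fitted, 778 without the 2 low-detection libraries, 2449 with the covariate and 1830 with DESeq2. In LPA-treated knockout against control, 2 members passed without those libraries and with the covariate and 1 with DESeq2. Genes there numbered 365, and 626, 190, 1346, 1800 and 1489 after quantile normalization, with 2 groups, without the 2 libraries, with the covariate and with DESeq2. Between LPA and vehicle DESeq2 passed 7 genes. Leaving out each mouse gave 44 to 403 genes (knockout against control), 73 to 702 (LPA-treated against control) and 0 between LPA and vehicle, with 0 members throughout.

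Signs turned as follows, and the cause was not tested. In knockout against control, Nfkb1 was -0.0092 with edgeR and -0.041 with DESeq2, Rela -0.024 with DESeq2, and Nfkbia 0.0030 without the 2 low-detection libraries and 0.21 without the 2 libraries with Xist. Between LPA and vehicle, Relb was -0.024 after median-ratio scaling, -0.0020 after quantile normalization, -0.29 without the 2 libraries, -0.41 without the Xist libraries, -0.26 with the covariate, -0.017 with edgeR and -0.015 with DESeq2. In the order without the 2 libraries, without the Xist libraries and with the covariate, Tnfaip3 was -0.11, -0.11 and -0.068 and Traf2 0.024, 0.050 and 0.078, and Map3k14 was -0.23 and -0.49 in the first pair. In LPA-treated knockout against control, Nfkb1 was -0.22 after median-ratio scaling, -0.16 after quantile normalization, -0.68 and -0.18 without the 2 libraries and the Xist libraries, -0.64 with the covariate, -0.33 with edgeR and -0.35 with DESeq2. Nfkbia was -0.026 with the covariate and Traf3 -0.032 without the 2 libraries.

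Leaving out 1 mouse turned signs within -0.50 to 0.88 (Nfkb1) and -0.51 to 0.21 (Nfkbia) for knockout against control. For LPA against vehicle the ranges were -0.74 to 0.22 (Nfkb1), -0.29 to 0.43 (Relb), -0.11 to 0.42 (Tnfaip3), -0.39 to 0.024 (Traf2) and -0.23 to 0.76 (Map3k14). For LPA-treated knockout against control they were -0.68 to 0.66 (Nfkb1), -0.032 to 0.78 (Traf3) and -0.55 to 0.019 (Map3k14). With the replicate number as a block, 302, 0 and 311 genes and 0 members passed in the 3 comparisons. The numbers are not stated to mark shared animals or days. For same-numbered mice, the deviations of all genes tested from their group means were correlated. These correlations were 0.10 and -0.36 (control with LPA-treated, 4 and 5), 0.30 (control with knockout, 5) and -0.21 (knockout with LPA-treated, 5). Low depth limits Rel, with 0 to 44 reads per library.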
